A study of Mus musculus with 8 samples.

Results

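Reln, Vldlr, Lrp8 and Dab1 were followed here in mouse small cell lung cancer cells grown at 3 sites and in the host cells captured with them. Reln encodes the secreted protein reelin, Vldlr and Lrp8 encode its receptors, and Dab1 encodes the adaptor that binds the receptors inside the cell. The 4 genes were taken by symbol from the 22056 features of the count tables, and all 4 were present and passed the filter on low counts. The samples were allografts of the cell line N2N1G, a mouse model of small cell lung cancer, which is a neuroendocrine tumour. Of the 8 libraries, 2 came from brain allografts, 3 from allografts in the liver and 3 from subcutaneous ones. All groups shared the same line, the same cell dose per mouse and harvest after 3 weeks, and no untreated or cultured sample was among them. The brain and subcutaneous tumours were started by direct injection and the liver tumours through the tail vein, so route and site cannot be told apart in any comparison with liver. Every group therefore describes grafts of 1 line, and the strain, age and sex of the mice were not given in the sources used here. Healthy cells were sorted before droplet 3′ RNA sequencing, in which each captured RNA molecule is counted as a unique molecular identifier (UMI). A cell counted as a tumour cell when eGFP and Mycl together gave at least 0.2% of its UMIs, and as a host cell below that. By this rule there were 34719 tumour cells, of which 6478 came from brain, 13023 from liver and 15218 from subcutaneous tumours, and 2078 host cells.

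Reelin is a large extracellular glycoprotein that guides migrating neurons in the embryonic cortex, where Cajal-Retzius cells secrete it, and that is made by some interneurons in the adult brain. It binds VLDLR and LRP8 (also called ApoER2), 2 members of the LDL receptor family, which leads Src family kinases to phosphorylate DAB1 and passes the signal on to phosphoinositide 3-kinase, Crk adaptors and the cytoskeleton. Both receptors also bind apolipoprotein E and clusterin, and VLDLR takes up lipoproteins in muscle and fat. The series title concerns how these tumours take on neuronal traits and grow in the brain, and the comparison of sites bears on that question.

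The promoters of the 2 members whose levels differed most between sites, Reln and Vldlr, are shown because their sequences differ greatly in composition. They are the 250 bases before a transcription start, taken from RefSeq (GRCm38.p6) and written 5′ to 3′ on the gene's strand, with the GC box GGGCGG (either strand) and the E-box CACGTG in capitals in the Reln window and the GC box in the second Vldlr window.
Reln, chr5:22344706-22344955, minus strand: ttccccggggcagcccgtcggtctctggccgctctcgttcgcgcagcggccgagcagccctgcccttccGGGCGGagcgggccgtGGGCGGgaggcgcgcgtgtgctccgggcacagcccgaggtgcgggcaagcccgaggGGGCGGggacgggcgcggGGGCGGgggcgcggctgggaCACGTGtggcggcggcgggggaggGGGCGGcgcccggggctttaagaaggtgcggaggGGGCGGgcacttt
Vldlr, first start, chr19:27216234-27216483, plus strand: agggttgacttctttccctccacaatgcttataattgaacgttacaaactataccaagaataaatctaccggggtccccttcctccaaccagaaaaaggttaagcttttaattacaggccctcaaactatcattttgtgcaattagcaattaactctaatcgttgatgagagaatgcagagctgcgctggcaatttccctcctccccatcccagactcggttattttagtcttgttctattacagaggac
Vldlr, second start, chr19:27216770-27217019, plus strand: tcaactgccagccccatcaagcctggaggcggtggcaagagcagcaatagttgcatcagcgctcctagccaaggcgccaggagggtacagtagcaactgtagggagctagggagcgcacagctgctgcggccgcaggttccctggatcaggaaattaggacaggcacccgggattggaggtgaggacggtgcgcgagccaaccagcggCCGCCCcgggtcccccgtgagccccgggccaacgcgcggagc

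The Reln window was 80.0% G and C and held 37 CpG dinucleotides, more than 97.8% of the 32851 mouse promoter windows of this length, whose median was 6. It held 6 GC boxes, a motif found at least once in 32.7% of all windows, and 1 E-box, found in 6.02%. The 2 Vldlr windows were 41.6% and 66.4% G and C, with 5 and 18 CpG dinucleotides. The first held no GC box and the second held 1. Of the member windows not shown, 1 of Dab1 was 78.0% G and C. It held 40 CpG dinucleotides, more than 98.7% of all windows. ACGTG, the core of the hypoxia response element, was searched on both strands and occurs in 16.6% of all windows. It was absent from both Vldlr windows, and its 2 matches in the Reln window are both strands of the E-box. Such matches describe letters only, and no binding was measured. On GENCODE M21 (GRCm38, the build the submitters' processing notes call mm10), Reln lies on chromosome 5 from 21884454 to 22344702 on the minus strand, and Vldlr on chromosome 19 from 27216484 to 27254231 on the plus strand. Dab1 (103619359 to 104744844) and Lrp8 (107802261 to 107876840) both lie on the plus strand of chromosome 4. Reln overlaps the antisense genes Gm16110 and Gm10475, and Lrp8 overlaps Lrp8os1 and Lrp8os2. Whether counting used strand was not given in the sources used here, so reads of these pairs may not be separable.

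Tumour cells gave 21689091 to 62047017 UMIs per library. They were 71.6% of the kept cells in brain replicate 1, 92.0% in brain replicate 2 and 93.8% to 98.9% elsewhere, and 882 cell barcodes occurred in more than 1 library. Subcutaneous replicate 1 stood apart from the other 2 subcutaneous libraries. It held 291 cells of tumour cluster 1, led by Ttr, Clca3b and Bst2 and made up mainly of brain cells, where the other 2 held 17 each. In liver replicate 2 the erythroid markers Hba-a1, Hbb-bs and Hbb-bt summed to 837 UMIs per 1000000 UMIs (CPM) in tumour cells, against at most 11.2 elsewhere. Differences of the members from the subcutaneous tumours, and the pathway calls against them, are therefore given with and without subcutaneous replicate 1. Transcripts of brain host cells were present in the brain tumour cells. The astrocyte gene Gfap stood at 20.3 and 13.8 CPM there and at up to 1.39 CPM elsewhere, and the summed level of the 8 astrocyte markers was 101 and 74.5 CPM against 18.2 to 42.4 CPM. The part of host transcripts in the results was not tested. Fits that leave out libraries or clusters do not remove such transcripts from the cells that stay.

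Reln, the gene of the ligand, was 4.15-fold higher in brain than in liver tumour cells, and this was the only difference of a member between these sites that passed the test. Reln was at 3.97 CPM (86 UMIs) in brain replicate 1 and 4.55 CPM (176 UMIs) in brain replicate 2. It was at 1.07 CPM (53 UMIs), 0.878 CPM (42 UMIs) and 0.885 CPM (41 UMIs) in the 3 liver libraries. In subcutaneous replicates 1, 2 and 3 it was at 3.60 CPM (150 UMIs), 1.51 CPM (94 UMIs) and 1.25 CPM (65 UMIs). Both brain libraries lay above all others, the liver libraries lay lowest, and subcutaneous replicate 1 lay close to brain. Mean levels ± SD were 4.26 ± 0.411 CPM for brain (n = 2), 0.945 ± 0.111 CPM for liver (n = 3) and 2.12 ± 1.28 CPM for subcutaneous tumours (n = 3). In bulk sums like these, fewer cells with the transcript and less transcript per cell cannot be told apart.

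Counts summed per library were compared in edgeR's quasi-likelihood fit over all 13931 genes tested. Nothing in the labels says that the allografts were independent beyond their numbering, so p-values measure the spread between these libraries. The 2 comparisons with brain share the brain libraries. Reln was 2.05 higher in brain than in liver on the log2 scale (SE 0.415, 95% confidence interval 1.12 to 2.99, adjusted p = 0.00987). It was thus 1 of 4 members called in this comparison, in which 21.8% of all genes were called, 13.2% higher and 8.56% lower in brain. Without brain replicate 2 the value was 1.95 with an adjusted p of 0.0603. Between brain and subcutaneous tumours Reln differed by 1.01 (SE 0.405, interval 0.102 to 1.93, adjusted p = 0.122), which did not pass the test although the libraries did not overlap. Without subcutaneous replicate 1, the subcutaneous library nearest to brain in Reln, that difference was 1.62 (adjusted p = 0.000584). Leaving that library out widens the gap by its Reln level, and the fit over all genes also changed, with 4754 calls against 2099. The fit without it was the only 1 of 8 left-out fits that passed, and the lowest value among them was 0.761. Between liver and subcutaneous tumours Reln differed by -1.04 (SE 0.381, interval -1.90 to -0.18, adjusted p = 0.190), again without overlap, and by -0.437 (adjusted p = 0.244) without subcutaneous replicate 1. Libraries that do not overlap were common, at 53.2% of all genes for brain and liver, 46.8% for brain and subcutaneous and 27.7% for liver and subcutaneous.

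**Figure D1:**
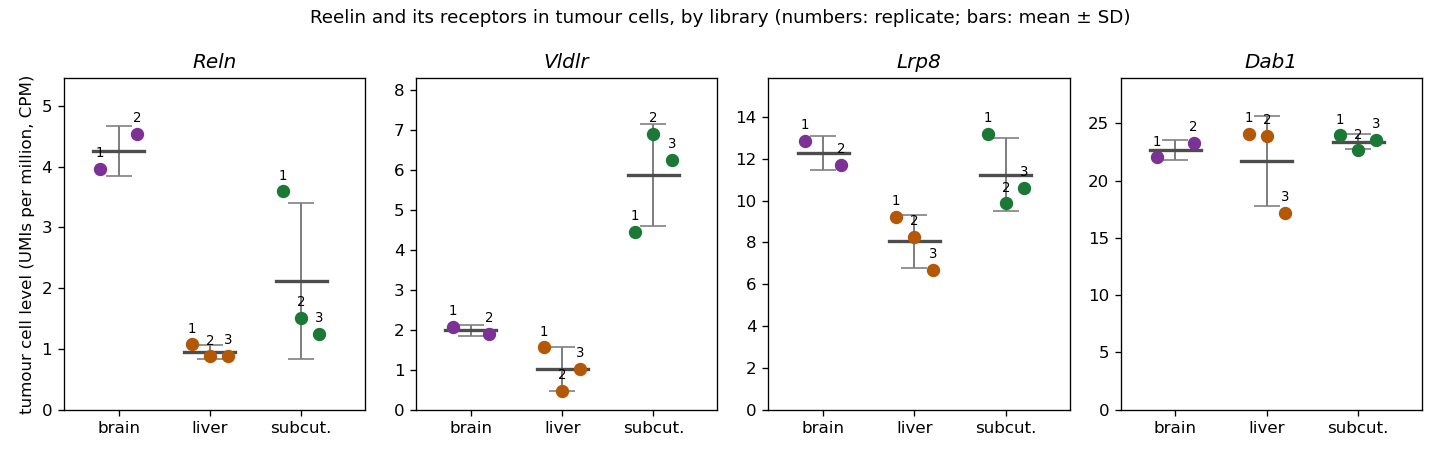
Level of each gene in the tumour cells of every library (y axis, CPM), by site on the x axis; points are libraries labelled with their replicate number, and bars are the mean ± SD. Reln is highest in the 2 brain libraries and in subcutaneous replicate 1, Vldlr in the 3 subcutaneous libraries, and Dab1 sits between 17.2 and 24.1 CPM throughout.

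Vldlr, the receptor that also takes up lipoproteins, followed another order, with subcutaneous tumours highest. Its level was 4.44 CPM (185 UMIs), 6.90 CPM (428 UMIs) and 6.24 CPM (324 UMIs) in subcutaneous replicates 1, 2 and 3. In brain it was 2.07 CPM (45 UMIs) and 1.89 CPM (73 UMIs). In liver replicates 1, 2 and 3 it was 1.56 CPM (77 UMIs), 0.460 CPM (22 UMIs) and 1.01 CPM (47 UMIs). Every subcutaneous library lay above every other library, and the brain libraries lay just above the liver libraries. The means were 5.86 ± 1.27 CPM in subcutaneous tumours (n = 3), 1.98 ± 0.134 CPM in brain (n = 2) and 1.01 ± 0.550 CPM in liver (n = 3).

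Vldlr was lower in liver than in subcutaneous tumours by a log2 difference of -2.42 (SE 0.376, interval -3.27 to -1.57, adjusted p = 0.0189 in edgeR), a 5.35-fold difference. It was the only member called in this comparison, in which 2.83% of all genes were called, 0.933% higher and 1.9% lower in liver. The adjusted p was 0.0521 without liver replicate 2, 0.0525 without liver replicate 3 and 0.0582 without subcutaneous replicate 2. Between brain and subcutaneous tumours the log2 difference was -1.57 (SE 0.424, interval -2.53 to -0.62, adjusted p = 0.0381), where 15.1% of all genes were called, 8.94% higher and 6.13% lower in brain. This call was lost without brain replicate 1 (adjusted p = 0.168), brain replicate 2 (0.185), liver replicate 3 (0.0641), subcutaneous replicate 2 (0.110) or subcutaneous replicate 3 (0.103). Without subcutaneous replicate 1 both calls were kept, at -2.58 (adjusted p = 0.00302) and -1.74 (adjusted p = 0.00639). Brain and liver differed by 0.85 (SE 0.422, interval -0.11 to 1.80, adjusted p = 0.183), which did not pass the test.

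**Figure D2:**
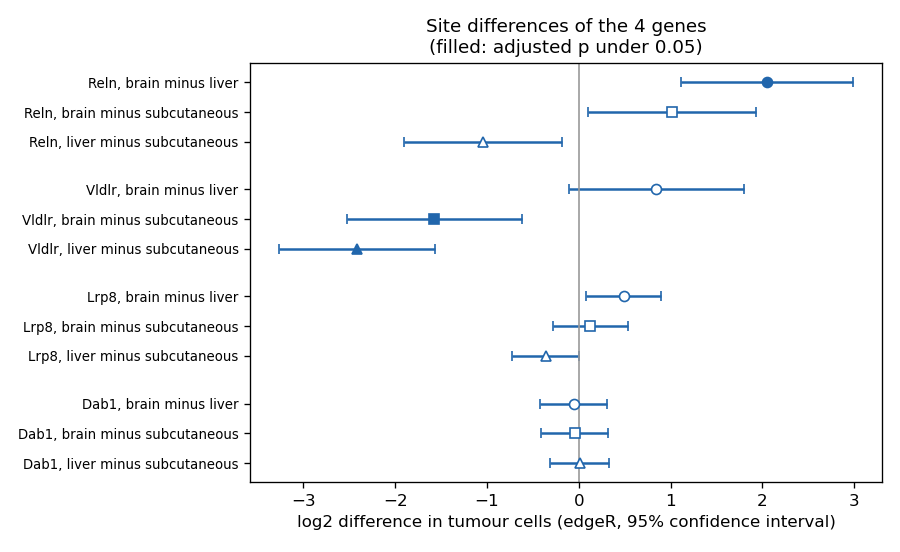
Log2 difference of each gene in tumour cells for the 3 pairs of sites (x axis), with 95% confidence intervals from edgeR; filled symbols have an adjusted p under 0.05. Filled symbols mark Reln for brain minus liver (2.05) and Vldlr for brain minus subcutaneous (-1.57) and liver minus subcutaneous (-2.42), and all 3 intervals of Dab1 span 0.

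Lrp8, the other reelin receptor, varied less. It stood at 12.9 and 11.7 CPM in brain, at 9.21, 8.28 and 6.69 CPM in liver replicates 1, 2 and 3, and at 13.2, 9.88 and 10.6 CPM in subcutaneous replicates 1, 2 and 3. The liver libraries lay below all others, and brain and subcutaneous libraries overlapped. The log2 difference between brain and liver was 0.49 (SE 0.182, interval 0.077 to 0.899, adjusted p = 0.0866), which did not pass the test. It did without subcutaneous replicate 1 (0.488, adjusted p = 0.0370), which enters this comparison through the shared estimate of spread, and in cells thinned to 3000 UMIs (0.619, adjusted p = 0.0272). Brain and subcutaneous differed by 0.13 (interval -0.28 to 0.54, adjusted p = 0.683) and liver and subcutaneous by -0.36 (interval -0.73 to 0.01, adjusted p = 0.287), and without subcutaneous replicate 1 by 0.259 and -0.229.

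Dab1, the adaptor that carries the signal, was present at similar levels in all 8 libraries. Its level was 22.0 and 23.3 CPM in brain, 24.1, 23.9 and 17.2 CPM in liver replicates 1, 2 and 3, and 24.0, 22.7 and 23.5 CPM in subcutaneous replicates 1, 2 and 3. The 3 sites overlapped, and liver replicate 3 lay lowest. The log2 differences were -0.06 for brain minus liver (interval -0.42 to 0.31, adjusted p = 0.833), -0.05 for brain minus subcutaneous (interval -0.41 to 0.32, adjusted p = 0.880) and 0.01 for liver minus subcutaneous (interval -0.31 to 0.33, adjusted p = 0.978). Without subcutaneous replicate 1 the differences from subcutaneous tumours were -0.0253 for brain and 0.0289 for liver. No difference passed the test, and the signs changed with the processing.

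Few tumour cells held a UMI of any member, so levels rest on sums over many cells. Reln had a UMI in 664 of 34719 tumour cells, of which 627 held exactly 1 and the highest held 7. Vldlr had a UMI in 1064 cells, Lrp8 in 3274 and Dab1 in 6737. Each cell was thinned to 3000 UMIs to compare the share of cells with a UMI, which left out 970 shallower cells. Reln was then found in 1.06% and 1.47% of cells in brain, 0.370%, 0.196% and 0.198% in liver, and 1.18%, 0.475% and 0.466% in subcutaneous replicates 1, 2 and 3. Unthinned, these shares were 3.10% and 4.04% in brain, 0.87% to 1.26% in liver and 1.34% to 3.42% in subcutaneous libraries. The thinned shares of Reln did not pass an exact permutation test over the 560 assignments of libraries to sites (p = 0.050, 0.067 after adjustment over the 4 genes). Without subcutaneous replicate 1, the subcutaneous library closest to brain, the adjusted p of Reln was 0.0381. It was 0.0889 to 0.165 with another subcutaneous or a liver library left out. The share of Vldlr averaged 1.74% ± 0.440 in subcutaneous tumours (n = 3), 0.624% ± 0.0695 in brain (n = 2) and 0.326% ± 0.241 in liver (n = 3), and that of Lrp8 averaged 3.12% ± 0.324, 3.50% ± 0.432 and 2.09% ± 0.0939. The exact permutation test gave p = 0.0214 for Vldlr and p = 0.0107 for Lrp8, both 0.0429 after adjustment over the 4 genes. With 1 library left out, adjusted p-values ran from 0.0381 to 0.152 for Vldlr and from 0.0381 to 0.114 for Lrp8. The designs without a brain library have 140 assignments and leave 1 brain library, so they are too coarse to say much about stability. The other designs have 210 assignments, and in these both genes passed only without subcutaneous replicate 1. Without liver replicate 2 or 3 the exact permutation p of Vldlr was 0.0762 (0.152 adjusted). For Dab1 the averages were 6.37% for brain, 5.78% for liver and 6.50% for subcutaneous tumours (exact permutation p = 0.407).

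Reelin and its receptors were seldom captured in the same cell at this depth. Among cells thinned to 3000 UMIs, 213 held a Reln UMI. Of these, 3 (1.41%, exact 95% binomial interval 0.291% to 4.06%) also held Vldlr, against 1.02% of cells without Reln. For Lrp8 it was 11 cells (5.16%, 2.61% to 9.05%) against 2.75%, and for Dab1 22 cells (10.3%, 6.59% to 15.2%) against 6.17%. By site, the shares with Lrp8 were 4.82% against 3.39% in brain and 3.06% against 3.08% in subcutaneous tumours. In liver they were 12.5% (4 of 32 cells) against 2.06%. The pooled cells come from libraries that differ in Reln, and these intervals cover counting error only.

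Reln was unevenly spread among tumour cells. The tumour cells of all libraries were clustered without the 4 members into 20 clusters, and cluster levels are descriptions with exact 95% Poisson intervals. Reln was at 8.16 CPM (6.80 to 9.71, 126 UMIs) in cluster 1 and 7.30 CPM (5.71 to 9.19, 72 UMIs) in cluster 5, which is led by Pax6, Hmx2 and Tm4sf1. Both have the homeobox gene En1 among their 10 leading genes. Cluster 18 stood at 8.32 CPM on 4 UMIs only (2.27 to 21.3). Clusters 6 (led by Mfap2, Fst and Des) and 8 (led by Igfbpl1, Hrk and Tubb2b) followed at 6.58 and 6.50 CPM. Cluster 17, led by Kcnh3 and Sfrp5 and found mostly in liver, stood at 0.590 CPM (0.395 to 0.848). In cluster 1 the level was 5.80 and 7.95 CPM in brain replicates 1 and 2 and 13.7 CPM in subcutaneous replicate 1. The liver libraries held 1, 2 and 2 cells of that cluster and no Reln UMI in them.

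The 2 En1-led clusters held 198 of the 707 Reln UMIs in 7.91% of the tumour cells. They were 28.2% and 38.5% of tumour cells in brain, 9.47% in subcutaneous replicate 1, 0.70% and 0.75% in subcutaneous replicates 2 and 3, and at most 0.27% in liver. Outside them Reln still stood at 2.66 and 2.88 CPM in brain, against 1.05, 0.88 and 0.89 CPM in liver and 2.84, 1.49 and 1.22 CPM in subcutaneous replicates 1, 2 and 3. Refitted without these clusters, an alternative chosen after seeing the data, Reln was 1.48 higher in brain than in liver (log2, adjusted p = 0.0353 in edgeR), against 2.05 with them. For brain minus subcutaneous it was 0.619 (adjusted p = 0.323).

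**Figure D3:**
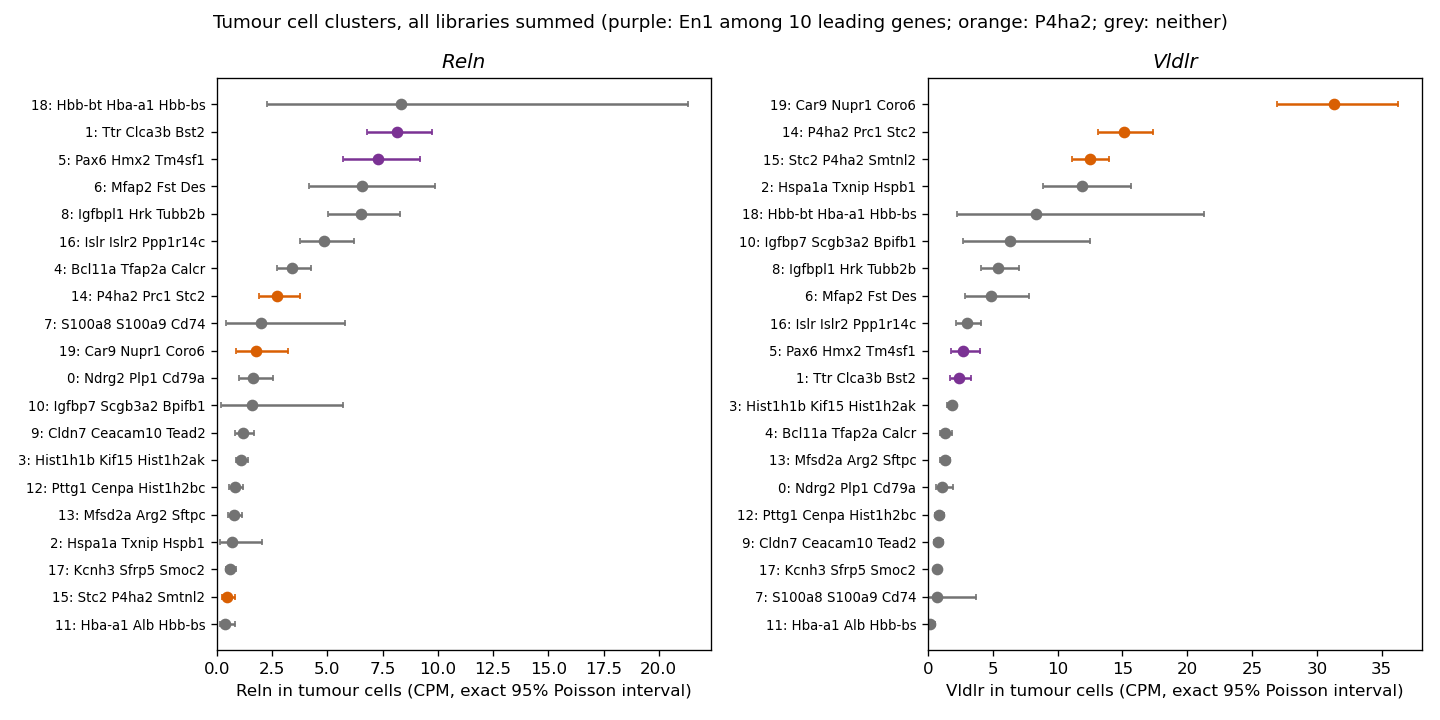
Reln (left) and Vldlr (right) in the 20 tumour cell clusters, named by number and 3 leading genes, with all libraries summed (x axis, CPM, exact 95% Poisson interval). Reln is high in the En1-led clusters 1 and 5 (8.16 and 7.30 CPM), and Vldlr is highest in the P4ha2-led clusters 19, 14 and 15 (31.3, 15.1 and 12.5 CPM).

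Vldlr was concentrated in other tumour cells. It stood at 31.3 CPM (26.9 to 36.3, 179 UMIs) in cluster 19, led by Car9 and Nupr1, at 15.1 CPM (13.1 to 17.3) in cluster 14 and at 12.5 CPM (289 UMIs) in cluster 15. These 3 clusters have P4ha2 among their 10 leading genes. P4ha2 encodes a collagen prolyl hydroxylase subunit, and it, the carbonic anhydrase gene Car9, the oxygen sensor gene Egln3 (cluster 14) and the mitophagy receptor gene Bnip3 (cluster 15) are known hypoxia-induced genes. Cluster 2, led by the heat shock gene Hspa1a, followed at 11.9 CPM. In cluster 19 the level was 30.3, 30.6 and 35.0 CPM in subcutaneous replicates 1, 2 and 3, which held 216, 280 and 165 of its 670 cells.

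The P4ha2-led clusters held 56.0% of the Vldlr UMIs (673 of 1201) in 11.7% of the tumour cells. They were 11.8%, 31.3% and 26.5% of the tumour cells in subcutaneous replicates 1, 2 and 3, and 0.86% to 2.14% in brain and liver. Outside them Vldlr stood at 2.31, 2.85 and 2.38 CPM in subcutaneous replicates 1, 2 and 3, at 1.79 and 1.77 CPM in brain and at 1.38, 0.40 and 0.93 CPM in liver. The subcutaneous libraries still lay above all others. Refitted without these clusters, chosen after seeing the data, the log2 difference was -1.37 between liver and subcutaneous (adjusted p = 0.101 in edgeR) and -0.488 between brain and subcutaneous (adjusted p = 0.475), so neither call was kept. For Lrp8 and Dab1 these clusters held 10.1% and 12.6% of UMIs, close to their share of cells. Lrp8 was highest at 20.3 CPM (17.9 to 22.9) in cluster 16, led by Islr and Islr2, and was 4.55 CPM (2.97 to 6.67) in cluster 19 where Vldlr peaked. Dab1 stood between 12.2 and 29.8 CPM in 19 clusters and at 61.0 CPM (48.1 to 76.2) in cluster 10, 115 cells led by Igfbp7, Scgb3a2 and Bpifb1 with the stromal genes Col3a1 and Dcn.

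Across the 20 clusters, with libraries weighted equally and levels as log2(CPM + 1), the genes most like Vldlr were P4ha1 (Pearson r = 0.943), Ero1l (0.927), Slc37a4 (0.918), Pfkp (0.916) and Eprs (0.912). For Reln they were Crtac1 (0.898), Akt2 (0.858), Tecr (0.858), Eid2b (0.856) and Gripap1 (0.848). Over the 8 libraries Reln was most like Olfm1 (0.993), Tm4sf1 (0.989), Mpc1 (0.988), Efna5 (0.987) and Celf2 (0.987), and Vldlr was most like Nr3c1 (0.991), Zfp131 (0.985), Acvr2a (0.984), Rps6kb1 (0.983) and Arl5b (0.979). Lrp8 was most like Map4k4 (0.896) over clusters and Nsd3 (0.987) over libraries, and Dab1 was most like Lpp (0.824) and 2810004N23Rik (0.966). These are the highest of about 7941 genes compared, clusters share libraries and differ in depth, and the values are descriptions.

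**Figure D4:**
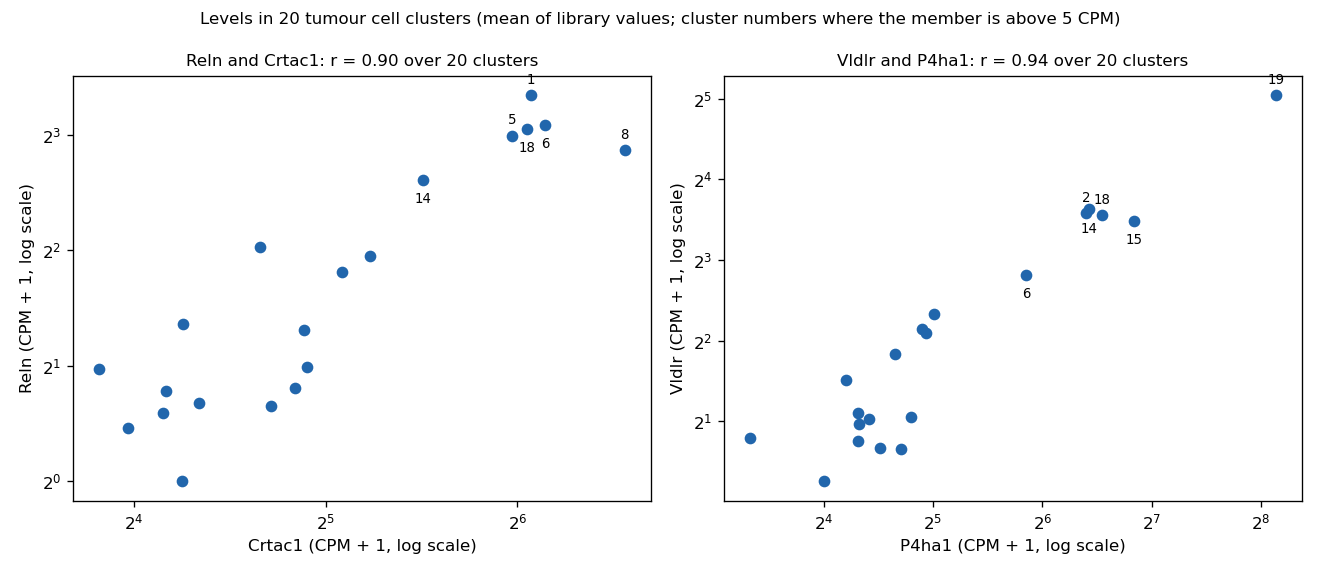
Each point is a tumour cell cluster (20 in all), placed by the mean over libraries of CPM + 1 on log axes, for Reln against Crtac1 (left, r = 0.898) and Vldlr against P4ha1 (right, r = 0.943). Cluster 1 is highest in Reln and cluster 19 in Vldlr, and cluster 18, with 4 UMIs of each, is high in both.

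The captured host cells held almost no Reln. In 2078 host cells there were 3 Reln UMIs (0.307 CPM, exact 95% Poisson interval 0.063 to 0.898), of which 2 were in the 1309 brain host cells. Microglia-like cells held 1 Reln UMI in 359 cells (0.279% of cells, median 4533 UMIs), and tumour transcripts such as Chga and Uchl1 stood there at 5.94% and 5.56% of their tumour level in brain replicate 1. After thinning to 1500 UMIs, Reln was seen in 0 of 354 microglia-like cells, with an exact 95% binomial upper bound of 1.04%, and in 0.834% ± 0.114 of brain tumour cells (n = 2). No host cluster was named neuron or Cajal-Retzius, so Reln in such host cells could not be read here. In tumour cells the 8 neuron markers summed to 164 to 205 CPM over the 8 libraries, with brain at 170 and 164 CPM. Snap25 was the highest of these 8. Slc17a7 was at 0.645 and 0.310 CPM in brain and at up to 0.120 CPM elsewhere. Neurod6 was at 0.0922 and 0 CPM in brain and at up to 0.0161 CPM elsewhere. Gad2 was at 0.0922 and 0.103 CPM in brain and at up to 0.0806 CPM elsewhere. Gad1 was at 16.6 and 14.96 CPM in brain and 10.2 to 20.2 CPM elsewhere. The 5 Cajal-Retzius markers summed to 105 and 87.1 CPM in brain, 61.2 to 68.4 CPM in liver and 100.2, 76.9 and 75.8 CPM in subcutaneous replicates 1, 2 and 3, with subcutaneous replicate 1 close to brain as for Reln. Their part in the Reln difference was not tested. Lhx1 was the highest of these 5 markers. Trp73, another of them, did not follow the sum. It was at 27.4 and 24.1 CPM in brain, 27.8 to 31.7 CPM in liver and 27.6 to 29.1 CPM in subcutaneous tumours.

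Both receptors had a host cell class in which they stood out. Host classes are named "-like" from marker genes. Vldlr was at 109 CPM (65.8 to 171, 19 UMIs) in 36 oligodendrocyte lineage-like cells, with 10 UMIs in brain replicate 1 and 9 in brain replicate 2 (108 and 110 CPM), in 15 of 36 cells. It was at 35.9 CPM (17.2 to 66.1, 10 UMIs) in 70 fibroblast-like cells, all from subcutaneous replicate 1. Microglia-like and endothelial-like cells held 0 Vldlr UMIs in 359 and 81 cells, limiting the share of cells with a UMI to 0.836% and 3.70% (3 counts). Lrp8 was at 59.8 CPM (36.0 to 93.4, 19 UMIs) in the 81 endothelial-like cells, with 17 UMIs in brain replicate 1 and 2 in brain replicate 2, and held 2 UMIs in the microglia-like cells (1.06 CPM). Dab1 held 0 UMIs in microglia-like, endothelial-like and fibroblast-like cells. Of its 68 host UMIs, 54 were in 371 cells of 2 clusters that carried tumour markers although they lay under the tumour cell threshold (29.1 CPM), so the remaining 1707 host cells held 14 Dab1 UMIs (1.77 CPM). The 32 astrocyte-like cells held 1 UMI each of Vldlr, Lrp8 and Dab1 and none of Reln. These classes rest on few cells and mostly on brain, were not tested between sites, and the intervals cover counting error only. Cells just under the threshold (0.15% to 0.2%, 231 cells) held Reln at 0.817 CPM on 1 UMI, and cells just over it (0.2% to 0.25%, 282 cells) held it at 2.98 CPM on 5 UMIs. Under and over the threshold, Vldlr was at 11.4 and 3.58 CPM (14 and 6 UMIs), Lrp8 at 4.08 and 5.37 CPM (5 and 9 UMIs) and Dab1 at 21.2 and 21.5 CPM (26 and 36 UMIs).

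**Figure D5:**
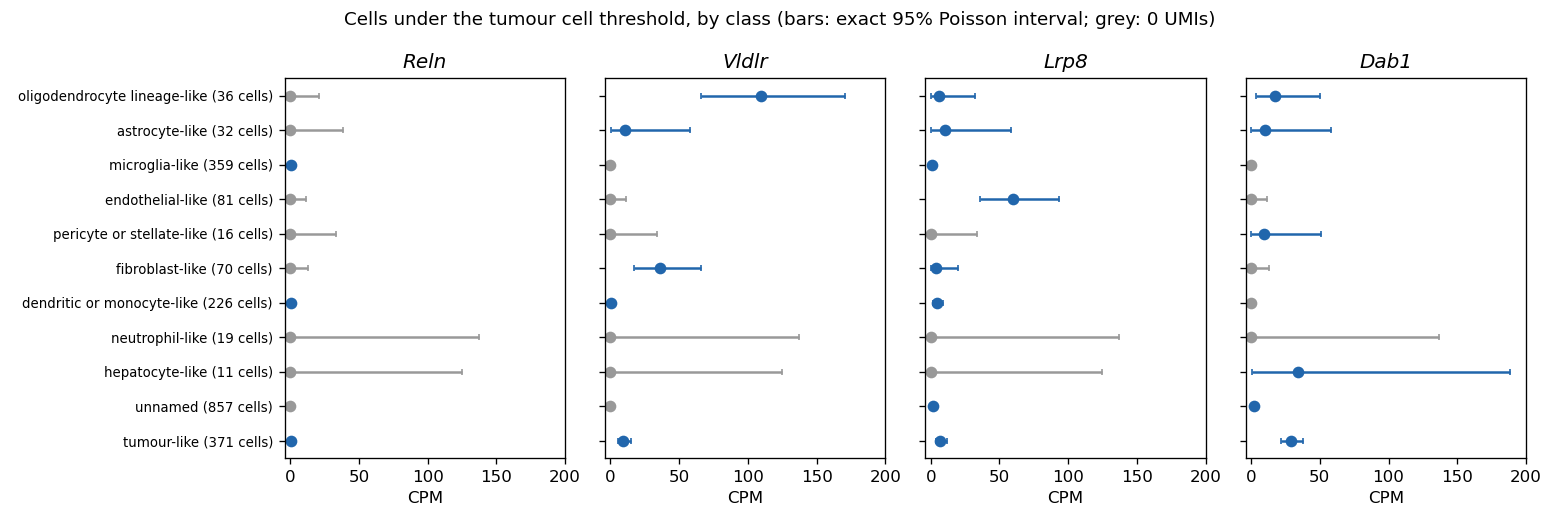
Level of each gene in cells under the tumour cell threshold, by class (y axis, with cell numbers) and CPM (x axis, exact 95% Poisson interval); grey points hold 0 UMIs. Vldlr stands at 109 CPM in oligodendrocyte lineage-like cells and Lrp8 at 59.8 CPM in endothelial-like cells, while Reln has 0 or 1 UMI in each class.

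The other genes of the pathway were read from 5 lists of 84 genes, of which 78 were tested. In brain against liver 12 were higher and 5 lower, in brain against subcutaneous 6 were higher and 8 lower, and in liver against subcutaneous 0 were higher and 2 lower. As shares these are close to the 21.8%, 15.1% and 2.83% of all genes called. Of reelin-processing enzymes and other ligands of the receptors, 6 of 11 were tested, and 4 were higher in brain than in liver and 2 higher than in subcutaneous tumours. Their median log2 differences were 2.23 and 1.82, where all genes had medians of 0.00121 and -0.000448. Apoe, which encodes the lipoprotein ligand apolipoprotein E, was at 240 and 87.2 CPM in brain, 7.82 to 8.79 CPM in liver and 23.5, 8.14 and 5.22 CPM in subcutaneous libraries. It was 4.20 higher in brain than in liver (SE 0.679, adjusted p = 0.00722 in edgeR) and 3.74 higher than in subcutaneous tumours (SE 0.665, adjusted p = 0.0151). Clu, which encodes the ligand clusterin, was at 12.7 and 7.67 CPM in brain and 0.306 to 1.05 CPM elsewhere (log2 differences 3.44 and 4.37, adjusted p = 0.000864 and 0.000467). Furin, which encodes the protease that activates reelin-cleaving metalloproteinases, was higher in brain than in liver (log2 1.55, adjusted p = 0.0376), at 5.72 and 2.74 CPM against 1.11 to 1.44 CPM. Macrophage transcripts, like the astrocyte markers given above, were also highest in the brain tumour cells, and their part in these differences was not tested. The fits given next leave out whole clusters and do not remove host transcripts from the cells that stay. The 8 macrophage markers summed to 339 and 51.4 CPM in the brain tumour cells, 4.49 to 10.2 CPM in liver and 1.92 to 32.6 CPM in subcutaneous tumours. Without the tumour clusters led by host genes the brain minus liver values were 4.06 for Apoe, 3.83 for Clu and 1.54 for Furin, all still past the test. Without the En1-led clusters Furin was at 1.33 (adjusted p = 0.111). With 1 library left out in turn Furin ranged from 0.965 to 2.01 in brain minus liver, and its call was kept in 4 of 8 fits. Plat, the gene of a protease that can cleave reelin, was the other gene higher in brain than in liver (log2 2.90, adjusted p = 0.0257), and Adamts5, another such protease gene, was lower in liver than in subcutaneous tumours (log2 -2.07, adjusted p = 0.0288). Both averaged under 1 CPM, which put them outside the rule for naming genes, and they are given because the counts are small.

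Below the receptors, 32 of 32 signalling genes were tested, and 3 were higher and 3 lower in brain than in liver, with a median of -0.00961. Of all genes, 13.2% were called higher and 8.56% lower in that comparison. Mapt, which encodes the microtubule protein tau, was at 81.4 and 97.8 CPM in brain, 23.4 to 35.1 CPM in liver and 53.2 to 72.1 CPM in subcutaneous tumours. It was higher in brain than in liver (log2 1.53, SE 0.177, adjusted p = 0.00122) and lower in liver than in subcutaneous tumours (log2 -1.01, adjusted p = 0.0201). Cdk5r1, which encodes the p35 activator of Cdk5, was at 53.1 and 54.8 CPM in brain and 21.9 to 41.3 CPM elsewhere, and was higher than in liver (log2 1.02, adjusted p = 0.00487) and than in subcutaneous tumours (0.734, adjusted p = 0.0241). The kinase gene Akt2 was higher in brain by 0.614 and 0.541 (adjusted p = 0.0108 and 0.0245), and by 0.154 (adjusted p = 0.437) and 0.112 (adjusted p = 0.592) without the En1-led clusters. Pik3r2, a regulatory subunit of phosphoinositide 3-kinase, was lower in brain than in liver (log2 -0.893, adjusted p = 0.00468) and than in subcutaneous tumours (-0.534, adjusted p = 0.0406). The cofilin kinase gene Limk1 was lower in brain than in liver (log2 -0.72, adjusted p = 0.00626). Fyn, the kinase gene whose product phosphorylates DAB1, was named after its values were seen, and was lower in brain than in liver (log2 -0.541, adjusted p = 0.0104) and than in subcutaneous tumours (-0.636, adjusted p = 0.00888). Pafah1b1, the gene of the dynein regulator LIS1, was likewise lower than in subcutaneous tumours (log2 -0.363, adjusted p = 0.0214).

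Among genes for receptor handling and co-receptors, 15 of 16 were tested and none passed in brain against liver or in liver against subcutaneous. In brain against subcutaneous 2 were lower. Of all genes, 21.8%, 2.83% and 15.1% were called in these 3 comparisons. At an unadjusted p under 0.05 edgeR gave 2 in brain against liver and 4 in liver against subcutaneous, and DESeq2 called 0 and 3 after adjustment. The 2 genes that edgeR called lower in brain than in subcutaneous tumours were the ephrin genes Efnb2 (2.72 and 2.07 CPM in brain, 4.34 to 6.96 CPM in subcutaneous tumours, log2 -1.33, adjusted p = 0.0173) and Efnb1 (log2 -0.537, adjusted p = 0.0427). Of 16 other LDL receptor family genes and their adaptors, 3 were higher and 1 lower in brain than in liver. Among all genes, 13.2% were called higher and 8.56% lower there. Lrp1, a large endocytic receptor for apolipoprotein E, was at 5.99 and 4.50 CPM in brain and 1.04 to 1.64 CPM in liver (log2 1.90, adjusted p = 0.00955), and at 1.23 to 3.19 CPM in subcutaneous tumours (log2 1.30, adjusted p = 0.0473). Ldlrad4 was higher in brain than in liver (log2 1.04, adjusted p = 0.0303), as was the adaptor gene Dab2 at under 1 CPM (log2 6.45, SE 1.73, adjusted p = 0.0289). Without the En1-led clusters Ldlrad4 was at 0.00634 (adjusted p = 0.995), and without brain replicate 1 at 0.622 (adjusted p = 0.223). Without the En1-led clusters Lrp1 was 1.51 (adjusted p = 0.0542) and 0.951 (adjusted p = 0.197) higher. Ldlrad3 was lower in brain than in subcutaneous tumours (log2 -0.47, adjusted p = 0.0494). Of 9 genes linked to Reln transcription, 2 were higher and 1 lower in brain than in liver, beside the same shares of all genes. Pax6 was at 12.6 CPM in both brain libraries, 0.0405 to 0.0863 CPM in liver, 2.93 CPM in subcutaneous replicate 1 and 0.0806 and 0.135 CPM in the other 2 (brain minus liver 7.48, SE 1.52, adjusted p = 0.0143). Tbr1, at under 1 CPM, was higher in brain than in liver (log2 3.75, adjusted p = 0.0138) and than in subcutaneous tumours (log2 2.82, adjusted p = 0.0412). Of 24 calls for the members and the genes named here by rule, 5 held with each of the 8 libraries left out in turn. These were Apoe, Clu, Mapt and Cdk5r1 in brain against liver and Clu in brain against subcutaneous. Without subcutaneous replicate 1, the brain minus subcutaneous differences of the called genes named here were 4.598 for Apoe, 4.76 for Clu, 0.946 for Cdk5r1, 0.669 for Akt2, -0.666 for Pik3r2, -0.715 for Fyn, -0.352 for Pafah1b1, -1.52 for Efnb2, -0.583 for Efnb1, 1.69 for Lrp1, -0.583 for Ldlrad3 and 4.36 for Tbr1. The liver minus subcutaneous differences were -0.888 for Mapt and -2.28 for Adamts5, and all of these calls were kept without that library. Calls over all genes in brain minus subcutaneous also rose in that fit, to 4754 from 2099. Over the 8 left-out fits, the brain minus subcutaneous calls of Pik3r2, Lrp1 and Ldlrad3 were kept only in that 1. The call of Efnb1 was kept in 2 of the 8. Without the En1-led clusters 4 further brain minus subcutaneous calls of genes named by rule were lost, at 0.543 for Cdk5r1 (adjusted p = 0.0861), -0.283 for Pik3r2 (0.239), -0.448 for Efnb1 (0.149) and -0.300 for Ldlrad3 (0.213). For Pax6, as for Reln, subcutaneous replicate 1 lay between brain and the other subcutaneous libraries.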

How the data were processed

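Droplet 3′ libraries of 8 N2N1G allografts were analysed from the filtered matrices the authors deposited, which hold raw UMI counts per gene and cell, made with Cell Ranger 3.0.0 per the file headers. Cell Ranger, STAR and the build mm10 are named in the submitters' processing notes, and the strand setting was not given in the sources used here. Cells with under 500 genes or over 10% mitochondrial UMIs were removed, which left 36797 of 38460 deposited cells. No doublet caller was run, and a fit without the 4% deepest cells stood in for it.

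Counts of tumour cells were summed per library and tested with edgeR 4.0.16 (R 4.3.3, limma 3.58.1) by a robust quasi-likelihood F test with TMM scaling and filterByExpr. The model had a mean per site over all 8 libraries, Benjamini-Hochberg adjustment over all 13931 genes tested and a threshold of 0.05. Log2 differences are the first site named minus the second. CPM is a gene's UMIs per 1000000 UMIs of those cells. Tumour and host cells were clustered separately (scanpy 1.11.5, igraph 0.11.9, 2000 variable genes without the 4 members, 30 components, 15 neighbours, Leiden resolution 1). Host clusters were named when at least 3 listed markers were detected and the leading genes did not go against the name. Shares of cells were compared after thinning to 3000 UMIs (1500 for host cells), with SciPy 1.17.1 for intervals. Intervals of summed counts and shares are exact, at 95%, and cover counting error only.

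Genes named beside the members were, per pathway list and direction, up to 3 genes past the threshold with the largest log2 difference and a mean of at least 1 CPM. For each member the 5 most similar genes of at least 10 CPM were also taken, over libraries and over clusters. Some genes that met the rule are not reported here. The members and lists were chosen with earlier results of these data known. The test was checked on simulated counts for brain against liver over 13688 genes, where it recovered 74.7% of genes changed 2-fold and 95.9% of those changed 4-fold, with 2.89% of calls false. The simulation gave every gene the same spread between libraries, lower than the common coefficient of variation of 17.9% fitted to the data. These shares therefore need not hold for genes with few UMIs such as Reln and Vldlr. Same-numbered allografts correlated at -0.11 to 0.345 in their deviations from the site means, so replicate numbers were not used as pairs. Alternatives were DESeq2 1.42.0, other scalings, filters and tumour cell thresholds, thinning, left-out libraries and, chosen after seeing the data, left-out clusters.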

Additional observations from a re-analysis of the deposited data

How the results depend on the processing

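Sites had 2 or 3 libraries, and the members had 22 to 428 UMIs per library for Reln and Vldlr, which limits these comparisons. Differences are log2 values, with adjusted p-values from edgeR in parentheses. In cells thinned to 3000 UMIs, Lrp8 in brain minus liver was 0.619 (0.0272), Vldlr in brain minus subcutaneous was -1.52 (0.0527), and Dab1 was 0.0489, 0.0223 and -0.0267 in brain minus liver, brain minus subcutaneous and liver minus subcutaneous, while Ldlrad3 in liver minus subcutaneous was 0.0776. With the replicate block, Vldlr in brain minus subcutaneous was -1.57 (0.0847) and Dab1 in liver minus subcutaneous was -0.00902. The block gave 1378 calls over all genes in brain minus subcutaneous and 229 in liver minus subcutaneous, against 2099 and 394 without it. It changed no other call of a member. In non-cycling cells Dab1 was 0.0562, 0.0515 and -0.00466 in the same 3 comparisons. At a tumour cell threshold of 0.5%, Lrp8 in brain minus subcutaneous was -4.8e-05. In liver minus subcutaneous, Dab1 was -0.0209 without the 4% deepest cells, -0.00916 without clusters led by host genes and -0.00173 without those led by En1. Without the P4ha2-led clusters, Vldlr was -0.488 (0.475) in brain minus subcutaneous and -1.37 (0.101) in liver minus subcutaneous. Without the En1-led clusters, Vldlr was -1.64 (0.0553) and Ldlrad4 -0.275 in brain minus subcutaneous. Of the alternatives in this paragraph, only the left-out clusters were chosen after seeing the data. Giving values without subcutaneous replicate 1 beside the results was likewise decided after its clusters were seen. The cause was not tested for any of these.

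Of the pathway genes, 17, 14 and 2 passed in brain minus liver, brain minus subcutaneous and liver minus subcutaneous. Without the En1-led clusters the first 2 counts were 10 and 6. With only the 2 sites compared, brain minus subcutaneous had 3. In liver minus subcutaneous the count was 1 with the replicate block, 0 without the P4ha2-led clusters and 5 with DESeq2. Over all genes, the calls were 1176 and 852 without the En1-led clusters, 728 for brain minus subcutaneous with only those sites fitted, and, in liver minus subcutaneous, 239 without the P4ha2-led clusters and 1070 with DESeq2.

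The share of cells with Vldlr, subcutaneous minus the mean of the other sites, was 1.26 percentage points. It was 0.767 (adjusted p = 0.0810, exact permutation) at 1500 UMIs, 3.89 (0.0571) without thinning and 1.27 (0.0571) at a threshold of 0.5%. For Lrp8, brain minus the mean of the others was 0.894 points, and 0.205 (0.0810) at 1500 UMIs, 0.829 (0.286) without thinning, 0.670 (0.0571) at 0.1% and 0.672 (0.0952) at 0.5%. Dab1 in host cells was 6.97 CPM, 3.22 CPM under 0.1%, 1.93 CPM under 0.05% and 9.19 CPM with no filter on cells.

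With each library left out in turn, Reln ranged from 1.95 to 2.17 in brain minus liver and from 0.761 to 1.62 in brain minus subcutaneous. Vldlr ranged from -1.74 to -1.42 in brain minus subcutaneous and from -2.89 to -2.06 in liver minus subcutaneous, and Lrp8 from 0.355 to 0.601 in brain minus liver. Dab1 ranged from -0.215 to 0.0306, from -0.0906 to 0.0102 and from -0.0727 to 0.170 in the 3 comparisons. In liver minus subcutaneous, Furin ranged from -0.463 to 0.329, Apoe from -0.827 to 0.399, Akt2 from -0.148 to 0.0538 and Ldlrad3 from -0.177 to 0.0154. The pathway counts ranged from 7 to 23, 1 to 28 and 0 to 6, and calls over all genes from 1112 to 4557, 383 to 4754 and 33 to 1024. The shares ranged from 0.580 to 0.990 points for Reln, 1.11 to 1.51 for Vldlr and 0.588 to 1.2 for Lrp8.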
